A study of Drosophila melanogaster with 23 samples.

Results

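Among the 17714 genes measured in the fly gut libraries, 48 carry a FlyBase symbol that begins with Prosalpha, Prosbeta, Rpn or Rpt followed by a digit, and these proteasome subunit genes are described here. By role, 14 of them encode the core particle, 18 encode the regulatory particle, and 16 are further copies of a subunit gene, marked in their symbols with T (testis) or R (related). Prosalpha1R is set with the copies by its symbol although it was read at a high level. Members were picked by gene name and by no measured value, although earlier results of these data were known at the time.

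The proteasome is the protease that degrades proteins marked with ubiquitin. Its barrel-shaped core particle is built of outer rings of alpha subunits, which gate entry, and inner rings of beta subunits, some of which cut peptide bonds. The regulatory particle caps the barrel. Its base holds the ubiquitin receptors and unfolds the substrate with a ring of ATPases, and its lid removes the ubiquitin chain.

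The study expressed a reprogramming transgene and a senolytic peptide, alone and together, in adult *Drosophila melanogaster* and sequenced midgut RNA. OKSM is one transgene for the human factors Oct4, Klf4, Sox2 and Myc, and Sen is a peptide that the methods describe as a fragment of the fly Fork head protein and the results text as built on foxo. In the ubiquitous expression model armGal4, a driver active in most cells, was used, and in the ISC-restricted expression model esgGal4, which is active in intestinal stem cells (ISCs) and their enteroblast daughters. All flies, the controls among them, also carried the temperature-sensitive repressor tubGal80ts, so that expression depended on temperature. All flies were kept at 25 °C, and the constructs were expressed constantly. Within each model the groups were WT, which expressed UAS-TdTomato, a fluorescent protein, UAS-OKSM (OKSM), UAS-Sen (Sen), and UAS-Sen with UAS-OKSM (OKSM-Sen). The study's list of crosses also places UAS-GFP beside both drivers. Its list of fly lines gives a further transgene, UAS-dCas9.VPR, in the esgGal4 stock and not in the armGal4 stock. The list of crosses names that transgene beside neither driver. The age and sex of the flies behind each RNA sample were not stated in the sources used. Although the tissue of the ISC-restricted samples is labelled as intestinal stem cells, midguts were dissected according to the paper, and genes of absorptive enterocytes and of visceral muscle were measured at high levels in these libraries.

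There were 23 libraries, 11 of the ubiquitous and 12 of the ISC-restricted expression model, with 3 in each group except ubiquitous Sen, which had 2 (replicates 2 and 3). Summed expected counts ran from 33438269 to 46324866 per ubiquitous library and from 14626936 to 18974759 per ISC-restricted library, so the models differ in depth throughout. The proteasome genes together took 0.264% to 0.386% of a ubiquitous library and 0.279% to 0.393% of an ISC-restricted one. The human factors of OKSM could not be checked from these tables, which list fly genes only. Sen has no entry of its own there, and reads of the fly gene it derives from were not examined. In the ISC-restricted expression model the submitters corrected an exchange of labels between replicate 3 of Sen and replicate 3 of OKSM-Sen, so results that rest on these libraries are also given without both. Nothing in the labels says that replicates came from separate cohorts of flies, and p-values then measure only the spread between these samples. In such bulk samples fewer cells of a type and less RNA per cell cannot be told apart.

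Levels of a gene across libraries are given as normalised read counts (CPM), in which the reads of a gene are scaled to a fixed library total. Where genes are compared with each other, TPM is used, a relative abundance that also divides by transcript length. Apart from the Prosalpha1 pair, 13 core and 18 regulatory genes were read in every library at similar levels. The mean TPM over 23 libraries had a median of 108 for the core genes and 69.6 for the regulatory genes, and the highest gene was 1.88 times the lowest within the core and 2.92 times within the regulatory particle. In the core, Prosbeta5, the chymotrypsin-like catalytic subunit, was highest at a mean TPM of 134, and Prosbeta3, a noncatalytic ring member, was lowest at 71.2. In the regulatory particle the ATPase Rpt6 stood highest at a mean TPM of 119, above any other regulatory gene. The scaffold subunits Rpn1 and Rpn2, on which the base is organised, were lowest at mean TPM values of 49.3 and 40.9. Within each particle the range over libraries of every gene overlapped that of its neighbour in this order.

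**Figure D1:**
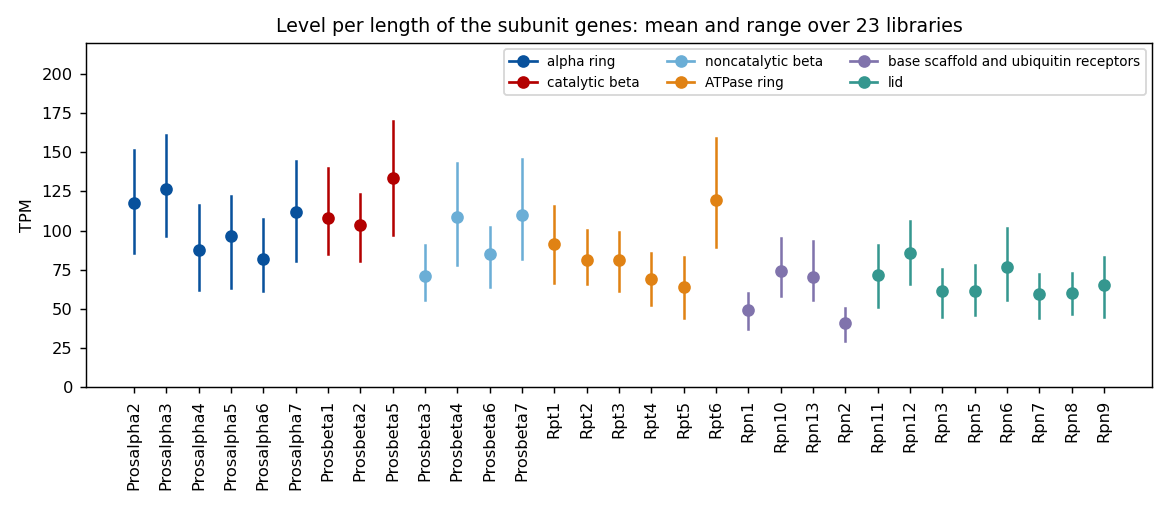
Level of each of 31 proteasome genes in TPM (vertical axis), grouped by role in the particle. A point is the mean over 23 libraries and a line runs from the lowest to the highest library; Prosbeta5 and Rpt6 are the highest of their particles, and Rpn1 and Rpn2 lie at the bottom.

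Prosalpha1 and Prosalpha1R encode the same alpha ring subunit, lie beside each other on the minus strand of chromosome arm 2R, and are similar enough that reads can be divided between them by the counting. Prosalpha1R had a mean TPM of 161 and Prosalpha1 of 8.12, and Prosalpha1 received between 0.883% and 10.6% of the reads of the pair, depending on the library. Because that share moves with the assignment of reads, neither gene is certain on its own. The summed level of the pair was 137 ± 8.78 CPM (SD, n = 3) in ISC-restricted WT, and among the constructs 121 ± 2.08 CPM with OKSM, 154.5 ± 13.8 CPM with Sen and 148 ± 6.46 CPM with both.

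The remaining 15 copies were close to silent in all 8 groups. Of these, 5 had no read in any library, 7 had between 1 and 10 reads over all 23 libraries, and 3 had more. Rpt3R, a copy of the ATPase gene Rpt3, had 215 reads and a mean TPM of 0.254, Rpt4R had 122 reads and 0.187, and Rpt6R had 33 reads and 0.0526. Rpt3R was found in 23 libraries, never above 35 reads, and it was the only one of the 15 with enough reads to be tested, in the ubiquitous expression model alone. Prosalpha3T, named for the testis, and Rpn13R, a copy of a ubiquitin receptor gene, had 10 reads each in all, Prosbeta2R2 had 6, Rpn12R had 2, and Prosalpha4T2, Prosbeta2R1 and Prosbeta5R2 had 1 each. Of 18 testis genes chosen as markers 15 were matched, and their summed level stayed between 0 and 0.364 CPM per library.

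The levels of the core and the regulatory particle were then followed across the groups. In ISC-restricted WT the median level of the 13 core genes was 70.7, 76.0 and 91.2 CPM in replicates 1, 2 and 3. It was 107, 92.4 and 91.0 CPM in OKSM, 104, 92.6 and 105 CPM in Sen, and 91.4, 98.6 and 83.85 CPM in OKSM-Sen. WT replicate 3 was the highest of its group and passed the lowest OKSM library and the lowest OKSM-Sen library, while all Sen libraries lay above WT. The regulatory median was 89.7, 92.5 and 100.4 CPM in WT, 113, 109 and 107 CPM in OKSM, 116, 108 and 118 CPM in Sen, and 106, 104 and 107 CPM in OKSM-Sen. For the regulatory genes no construct library overlapped the WT range. In the ubiquitous expression model the regulatory median was 98.6, 131 and 106 CPM in WT, 110.3, 120.0 and 123 CPM in OKSM, 99.97 and 109 CPM in Sen, and 109, 112 and 122 CPM in OKSM-Sen, so that WT replicate 2 stood above every other library and the groups overlapped.

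**Figure D2:**
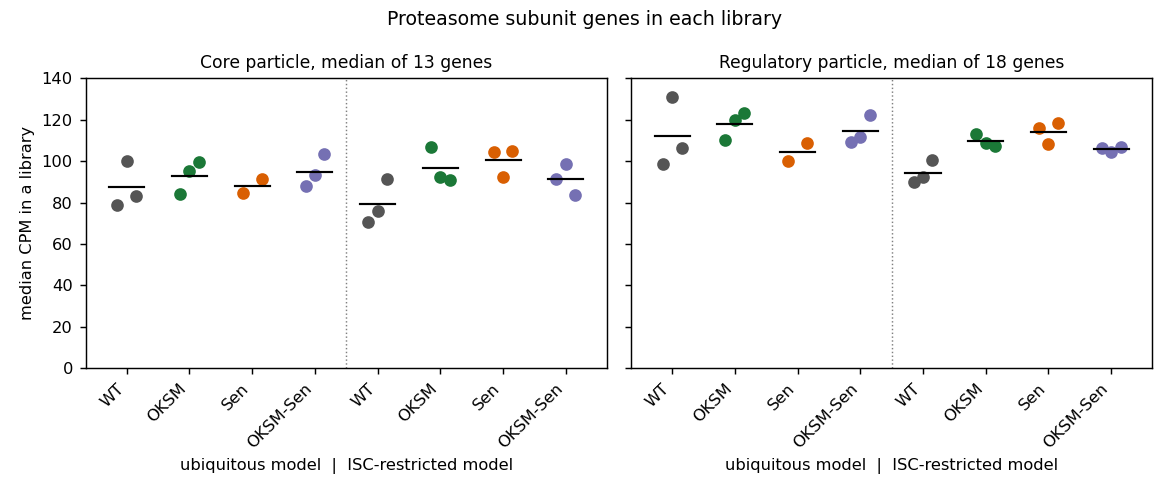
Median CPM of the 13 core genes and of the 18 regulatory genes in each library (points), by model and group, with the group mean as a line. In the ISC-restricted expression model the regulatory medians of all 9 construct libraries lie above the 3 WT libraries, while in the ubiquitous expression model the regulatory median of WT replicate 2 is the highest of all.

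The difference between the median log2 CPM of the core and that of the regulatory particle was -0.26 ± 0.11 (SD, n = 3) in ISC-restricted WT, and with constructs -0.19 ± 0.09 (OKSM), -0.19 ± 0.04 (Sen) and -0.22 ± 0.13 (OKSM-Sen). Each construct differed from WT by less than the SD of WT, and WT replicates spread as widely as the groups. In the ubiquitous expression model the same difference was -0.35 ± 0.03 (SD, n = 3) for WT, -0.34 ± 0.04 for OKSM, -0.24 ± 0.01 (n = 2) for Sen and -0.27 ± 0.03 (n = 3) for the combination. In ubiquitous Sen and OKSM-Sen this CPM difference was thus higher than in WT by 0.11 and 0.08, more than the SD of these groups. No test was run on this summary. With TPM, which divides by transcript length, the core lay above the regulatory particle. The TPM difference was 0.54 ± 0.03 in ubiquitous WT, 0.67 ± 0.04 in Sen and 0.57 ± 0.02 in OKSM-Sen, so the particles lay further apart than in WT. On the TPM scale the shift was 0.04 in ubiquitous OKSM-Sen, and in the ISC-restricted constructs it changed sign, from 0.07 to -0.05 in OKSM and in Sen and from 0.04 to -0.06 in OKSM-Sen.

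The first question was which proteasome genes each construct changed when expressed in ISCs. Of 33 members tested, 16 differed over the 4 ISC-restricted conditions at a false discovery rate of 10% (edgeR's quasi-likelihood test with Benjamini-Hochberg adjustment over all 9374 genes tested), against 35.7% of all genes. Leaving out WT replicate 1 or WT replicate 2 brought the 16 to 5, leaving out Sen replicate 3 to 10, and leaving out both relabelled libraries to 6. The 3 comparisons of a construct with WT below share their WT libraries, so their values stand side by side and are not independent.

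Of 33 tested, 23 were higher in Sen than in WT and none was lower, where 18.2% of all genes were higher and 18.3% lower. The members that rose did so by 1.13-fold to 1.41-fold, and the median log2 fold change over the members was 0.26, against -0.02 over all genes tested. Every Sen library was above every WT library for 23 members, where 22.8% of all genes met that condition. Without both relabelled libraries 9 members were called. Without WT replicate 1, WT replicate 2, Sen replicate 1 or Sen replicate 3 the numbers were 11, 14, 14 and 11.

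By role, 5 of 7 alpha ring genes, 1 of 3 catalytic beta genes, 3 of 4 noncatalytic beta genes, 6 of 6 ATPases, 2 of 4 genes of the base scaffold and ubiquitin receptors, and 6 of 8 lid genes were higher in Sen. The median log2 fold change was 0.30 for the core and 0.24 for the regulatory particle. The lid scaffold gene Rpn3 was measured at 76.7, 85.3 and 92.5 CPM in WT and at 118, 112 and 114 CPM in Sen. The lowest Sen library lay above the highest WT library, and Rpn3, annotated on chromosome arm 2L from 19051790 to 19053681 (plus strand, BDGP6 assembly), rose by 0.43 on the log2 scale (SE 0.07, edgeR adjusted p = 0.00224).

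The ATPase gene Rpt6, on chromosome X from 21316052 to 21317663, was measured at 124, 133 and 153.5 CPM in WT and at 199, 172 and 192 CPM in Sen, a log2 fold change of 0.45 (SE 0.09, edgeR adjusted p = 0.00481). Another ATPase gene, Rpt4, on chromosome X from 6289470 to 6291245, was measured at 77.4, 80.8 and 90.9 CPM in WT and at 113, 101 and 113 CPM in Sen, a log2 fold change of 0.39 (SE 0.09, edgeR adjusted p = 0.00906). Both were higher in all 3 Sen libraries than in any WT library. Rpn9, a lid subunit gene on chromosome arm 3R from 23731375 to 23733462, was measured at 67.5, 68.8 and 81.35 CPM in WT and at 98.3, 89.6 and 101 CPM in Sen, a log2 fold change of 0.40 (SE 0.09, edgeR adjusted p = 0.00617). The alpha ring gene Prosalpha4, on chromosome X from 16276270 to 16277587, was measured at 68.1, 75.9 and 91.15 CPM in WT and at 117, 100.4 and 114.9 CPM in Sen, a log2 fold change of 0.49 (SE 0.11, edgeR adjusted p = 0.00819). These 5 genes passed the threshold whichever of the 12 libraries was left out. Markers of ISCs and enteroblasts, of which 7 of 9 were matched (esg and Dl were not), summed to 77.0 to 94.6 CPM in WT and 143 to 150.0 CPM in Sen, with 5 of the 7 called higher. Of 10 visceral muscle markers, 3 were called higher in Sen and all 10 lay above 0. The part of these cell types in the result was not tested.

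In OKSM members of both particles rose as well. Here 13 of 33 members were higher than in WT, where 17.3% of all genes were, and 1 was lower, where 15.0% were. The members that rose did so by 1.17-fold to 1.49-fold, and the median log2 fold change was 0.17 over the members and 0.01 over all genes. Every OKSM library lay above every WT library for 15 members, where 20.2% of all genes did. Of the 14 core genes 6 were higher (median log2 fold change 0.25), and of the 18 regulatory genes 7 were (0.13).

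Prosalpha5, an alpha ring gene, was measured at 47.7, 51.1 and 68.3 CPM in WT and at 89.0, 76.4 and 80.8 CPM in OKSM, a log2 fold change of 0.575 (SE 0.13, edgeR adjusted p = 0.00968). Prosalpha4 was measured at 123, 107.5 and 107 CPM in OKSM, above all 3 WT libraries, a log2 fold change of 0.53 (SE 0.11, edgeR adjusted p = 0.00712). The WT values of both genes spread widely, with replicate 3 the highest, and still did not overlap OKSM. Rpn9 was measured at 103, 97.9 and 92.8 CPM in OKSM, a log2 fold change of 0.45 (SE 0.09, edgeR adjusted p = 0.00494). Rpn3 was measured at 114, 109 and 113 CPM in OKSM, a log2 fold change of 0.42 (SE 0.07, edgeR adjusted p = 0.00389). Rpt4 was measured at 116.5, 99.6 and 104 CPM in OKSM, a log2 fold change of 0.38 (SE 0.09, edgeR adjusted p = 0.013). All 3 genes lay above the WT range in every OKSM library, and the 5 calls held whichever library was left out.

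The member called lower in OKSM was Prosalpha1R, at 121, 134 and 134 CPM in WT and 114.9, 111 and 108 CPM in OKSM, a log2 fold change of -0.20 (SE 0.08, edgeR adjusted p = 0.0936). That call was lost in 7 of 12 fits with a library left out (those without replicates 2 or 3 of WT, replicates 2 or 3 of OKSM, replicate 1 of Sen, and replicates 1 or 3 of OKSM-Sen; highest adjusted p = 0.23), and the summed pair did not pass (log2 fold change -0.17, edgeR adjusted p = 0.159). Muscle genes moved in the same comparison: 10 visceral muscle markers summed to 1312 to 1478 CPM in WT and 1829 to 3383 CPM in OKSM, with 7 of the 10 called higher. Of 7 markers of ISCs and enteroblasts, 2 were called higher and 1 lower in OKSM. The part of these cell types in the result was not tested.

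In OKSM-Sen 9 of 33 members were higher than in WT and none was lower, where 15.7% of all genes were higher and 13.3% lower. The members that rose did so by 1.15-fold to 1.29-fold, and the median log2 fold change was 0.14 over the members and 0.02 over all genes. Every OKSM-Sen library lay above every WT library for 18 members, where 20.3% of all genes did. By role, 2 of 7 alpha ring genes, none of the 3 catalytic beta genes, 1 of 4 noncatalytic beta genes, 4 of 6 ATPases, none of the 4 genes of the base scaffold and ubiquitin receptors and 2 of 8 lid genes were higher. Without both relabelled libraries 2 members were higher. Without WT replicate 1, WT replicate 2, or OKSM-Sen replicate 1, 2 or 3 the numbers were 2, 2, 2, 4 and 2. Markers of ISCs and enteroblasts summed to 104 to 133 CPM in OKSM-Sen, with 3 of 7 called higher and 1 lower. Of 10 visceral muscle markers, 1 was called higher and none lower. The part of these cell types in the result was not tested.

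Rpn9 was measured at 91.5, 90.5 and 90.8 CPM in OKSM-Sen, a log2 fold change of 0.34 from WT (SE 0.09, edgeR adjusted p = 0.0194). Rpn3 was measured at 102, 105 and 102 CPM in OKSM-Sen, a log2 fold change of 0.29 (SE 0.07, edgeR adjusted p = 0.0206). The OKSM-Sen libraries were close to each other for both genes and above all WT libraries, and both calls held whichever library was left out. Rpt6 was measured at 169, 164 and 167.5 CPM in OKSM-Sen, a log2 fold change of 0.30 (SE 0.09, edgeR adjusted p = 0.0412). Rpt5, another ATPase gene, was measured at 88.3, 91.1 and 99.5 CPM in WT and 116, 103.5 and 112 CPM in OKSM-Sen, a log2 fold change of 0.26 (SE 0.08, edgeR adjusted p = 0.0448). Prosalpha4 was measured at 97.9, 102 and 95.8 CPM in OKSM-Sen, a log2 fold change of 0.34 (SE 0.11, edgeR adjusted p = 0.0521). These 3 genes did not overlap WT either, but Rpt6 and Rpt5 lost the call when replicate 1 or 2 of WT or replicate 1 or 3 of OKSM-Sen was left out, and Prosalpha4 lost it without any of these 4 libraries or replicate 2 of OKSM-Sen (highest adjusted p = 0.171).

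**Figure D3:**
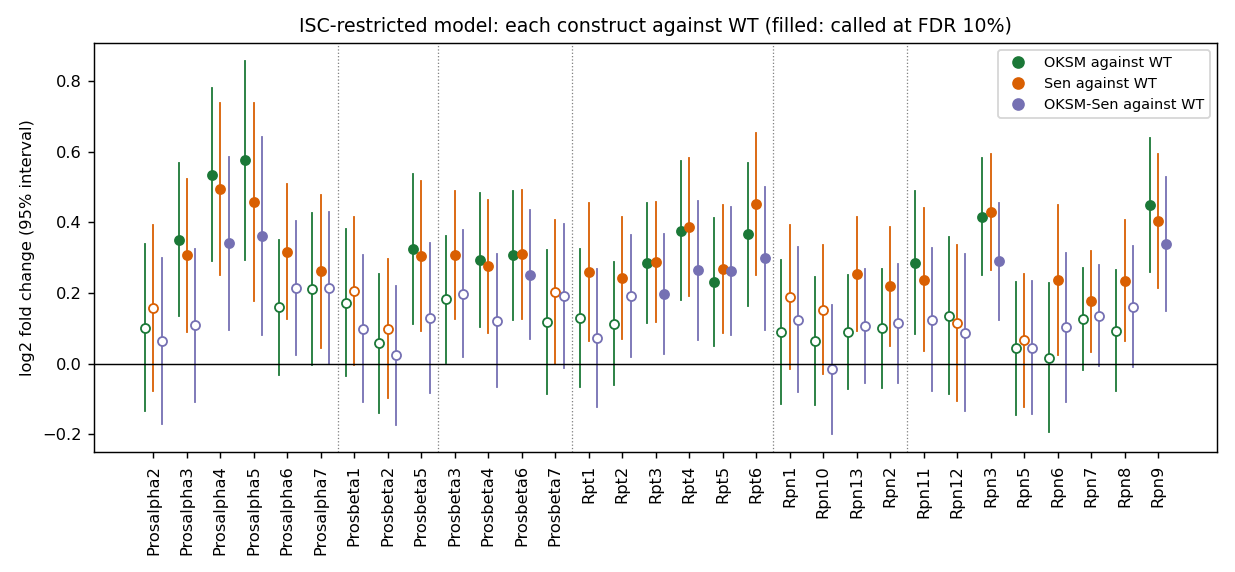
Log2 fold change of each proteasome gene against ISC-restricted WT for OKSM, Sen and OKSM-Sen, with 95% intervals, filled where the gene passed a false discovery rate of 10%. Most points lie above 0 in all 3 constructs, with 13, 23 and 9 members higher, and Rpn3, Rpn9, Rpt6 and Prosalpha4 are filled in each.

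The next question was whether the combination differed from the single constructs. Against OKSM, no member differed in OKSM-Sen by edgeR's quasi-likelihood test at a false discovery rate of 10%, where 0.672% of all genes did. At an unadjusted p under 0.05, where 10.9% of all genes lay, there were 2, Prosalpha1R (log2 difference 0.31, adjusted p = 0.174) and Prosalpha3 of the alpha ring (-0.24, adjusted p = 0.404), and DESeq2 called 1, Prosalpha1R (0.30, adjusted p = 0.0462). The next in order was the catalytic Prosbeta5 with -0.19. Against Sen, no member differed by edgeR, where 0.555% of all genes did, none had an unadjusted p under 0.05 (11.2% of all genes), and DESeq2 called 0. The median log2 difference of OKSM-Sen from Sen was -0.10, and 1 of 33 members was above 0 (52.8% of all genes), with Rpt1 (-0.19), Rpn10 (-0.17) and Rpn13 (-0.15) the members with the smallest p. Over the 31 genes apart from the copies and the Prosalpha1 pair the median was -0.10, and it was -0.06 with 3 of 31 above 0 without both relabelled libraries and -0.05 with 4 of 31 above 0 without Sen replicate 1. Without both relabelled libraries 0 members were called against Sen and 0 against OKSM by edgeR, and the median difference from OKSM over the 31 genes was -0.04, against -0.05 with all libraries and 0.02 without OKSM replicate 1.

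The effect of both constructs was smaller than the sum of the single effects for part of the genes. Such an interaction, the change in OKSM-Sen minus the changes in OKSM and Sen on the log2 scale, was below 0 for 12 of 33 members at a false discovery rate of 10% and above 0 for none, where 11.4% of all genes were below and 10.6% above. The median interaction was -0.26 over the members and 0.03 over all genes. It was -0.56 for Rpn3 (SE 0.11, edgeR adjusted p = 0.0101), -0.69 for Prosalpha4 (SE 0.16, adjusted p = 0.0198), -0.51 for Rpn9 (SE 0.12, adjusted p = 0.0223), -0.52 for Rpt6 (SE 0.13, adjusted p = 0.0268) and -0.50 for Rpt4 (SE 0.13, adjusted p = 0.0277). The same WT libraries enter all of these terms. Without both relabelled libraries 1 member passed, and without them the adjusted p was 0.106 for Prosalpha4, 0.113 for Rpn9, 0.12 for Rpt6 and 0.135 for Rpt4 (edgeR). In the same term 9 of 10 visceral muscle markers and 4 of 7 markers of ISCs and enteroblasts passed the threshold below 0, and their part in the result was not tested.

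Some members were not called over the ISC-restricted groups. Rpn5, a lid scaffold subunit, was measured at 120.4, 125 and 124 CPM in WT, 137.5, 120.3 and 118 CPM in OKSM, 129, 117 and 142 CPM in Sen, and 125, 128 and 125 CPM in OKSM-Sen, with all groups overlapping (edgeR adjusted p = 0.911 over the 4 conditions). Prosbeta2, the trypsin-like catalytic subunit, was measured at 87.9, 94.2 and 100.8 CPM in WT and at 104, 92.5 and 107 CPM in Sen, also overlapping (edgeR adjusted p = 0.776 over the 4 conditions). In Sen the other tested members that did not pass were the catalytic Prosbeta1, the noncatalytic Prosbeta7, the alpha ring genes Prosalpha1 and Prosalpha2 with the copy Prosalpha1R, the scaffold gene Rpn1, the ubiquitin receptor gene Rpn10 and the lid gene Rpn12. Rpn8, a lid subunit called higher in Sen, overlaps the more highly read gene Slik on the opposite strand, and nothing in the sources says whether the counting used strand.

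In the ubiquitous expression model none of the 34 members tested passed in any comparison. By edgeR's quasi-likelihood test at a false discovery rate of 10%, 0 members differed between OKSM and WT (1.09% of all genes did), between Sen and WT (2.48%), between OKSM-Sen and WT (1.16%), between OKSM-Sen and OKSM (0.301%), between OKSM-Sen and Sen (1.8%), over the 4 conditions (2.61%) and in the interaction (1.06%). The members with an unadjusted p under 0.05 numbered 2, 2, 1, 0, 0, 0 and 1 in that order, where 10.1%, 14.3%, 8.82%, 6.64%, 13.4%, 14.4% and 12.2% of all genes did, and DESeq2 called 0 in each. The single member in the interaction was the copy Rpt3R (2.27 on the log2 scale, edgeR adjusted p = 0.381), which rests on few reads. The median log2 fold change of the members against WT was close to 0 for OKSM (-0.01) and for the combination (-0.01), and -0.17 for Sen.

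In ubiquitous Sen the median was -0.19 for the regulatory particle, of which 0 of 18 genes were above 0, and -0.12 for the core, of which 3 of 14 were, against -0.01 over all genes, of which 48.3% were above 0. Rpn1, the base scaffold gene, was measured at 178, 209 and 175.5 CPM in WT and at 143 and 159.6 CPM in Sen, a log2 fold change of -0.33 (SE 0.13, edgeR adjusted p = 0.276). Rpt1, an ATPase gene, was measured at 149, 165 and 151 CPM in WT and at 126 and 131 CPM in Sen, a log2 fold change of -0.29 (SE 0.12, edgeR adjusted p = 0.335). Both Sen libraries lay below all WT libraries for these genes, as they did for 6 members in all, where 14.0% of all genes did. Rpt3R, at -1.60 in Sen (edgeR adjusted p = 0.371), had the next smallest p there. Rpn3 was measured at 93.05, 133 and 105 CPM in WT, 116, 126 and 122.5 CPM in OKSM, 105 and 113 CPM in Sen, and 112, 113 and 123 CPM in OKSM-Sen, all within the WT range. Prosalpha4, at 78.9, 100.2 and 83.0 CPM in WT, was measured at 102.5, 110.4 and 101 CPM in OKSM and 100.4, 101 and 111 CPM in OKSM-Sen, the member with the smallest p in both (log2 fold changes 0.25 and 0.25, edgeR adjusted p = 0.428 and 0.494). Prosalpha1R followed in both, at -0.34 and -0.22. Over the 31 genes apart from the copies and the Prosalpha1 pair, leaving out WT replicate 2 moved the median log2 fold change from -0.01 to 0.12 in OKSM, from -0.16 to -0.04 in Sen and from -0.01 to 0.10 in OKSM-Sen, with no member called.

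The models were then compared in a fit over all 23 libraries. The log2 fold change of Sen against WT was higher in the ISC-restricted than in the ubiquitous expression model for 19 of 33 members and lower for none. Of all 9602 genes tested, 14.2% differed in the first direction and 13.1% in the other. The difference had a median of 0.40 on the log2 scale over the members and -0.04 over all genes. It passed for 14 of 18 regulatory genes and for 5 of 14 core genes, with medians of 0.45 and 0.35. The regulatory genes that passed were 5 of 6 ATPases, 4 of 4 genes of the base scaffold and ubiquitin receptors and 5 of 8 lid genes. The WT groups of both models enter this difference, and they differed themselves, with a median log2 difference of -0.23 over the members (ISC-restricted minus ubiquitous). Without ubiquitous Sen replicate 2, which leaves 1 library in that group, 5 members passed, and without both relabelled libraries 12 did. Markers of ISCs and enteroblasts summed to 70.4 to 81.4 CPM in ubiquitous Sen and to 88.3 to 127 CPM in ubiquitous WT, opposite to the ISC-restricted model, and their part in the result was not tested.

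Rpt1 was measured at 122, 121 and 139 CPM in ISC-restricted WT and at 159, 145 and 155 CPM in ISC-restricted Sen, so that its Sen change differed between the models by 0.53 on the log2 scale (SE 0.14, edgeR adjusted p = 0.0141). Rpn2, the second base scaffold gene, was measured at 136, 138 and 140.4 CPM in ISC-restricted WT, 165, 145 and 173 CPM in ISC-restricted Sen, 163, 191 and 150.5 CPM in ubiquitous WT, and 142 and 141 CPM in ubiquitous Sen, a difference of 0.47 (SE 0.14, edgeR adjusted p = 0.0222). In these genes the Sen libraries lay above all WT libraries of the ISC-restricted model and below all WT libraries of the ubiquitous model. The difference was 0.59 for Rpt4 (SE 0.16, edgeR adjusted p = 0.0194, and 0.50 with adjusted p = 0.104 without ubiquitous Sen replicate 2), 0.50 for Rpn9 (SE 0.14, adjusted p = 0.0215) and 0.53 for Rpt6 (SE 0.15, adjusted p = 0.0232). Leaving out ubiquitous WT replicate 2 moved the median difference over the 31 genes from 0.41 to 0.28.

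**Figure D4:**
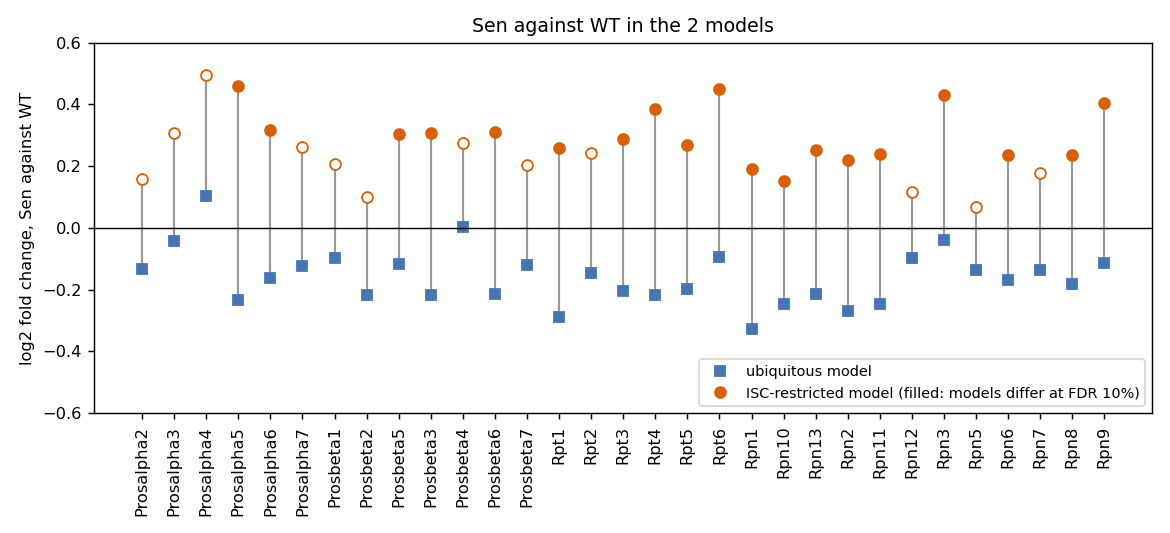
Log2 fold change of Sen against WT for each proteasome gene in the ubiquitous (squares) and ISC-restricted (circles) expression models, with the circle filled where the models differ at a false discovery rate of 10%. The circles lie mainly above 0 and the squares mainly below it, and the models differ for 19 members, 14 of them in the regulatory particle. The median difference between the models was 0.45 for the regulatory and 0.35 for the core genes.

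For OKSM no member differed between the models by edgeR's quasi-likelihood test at a false discovery rate of 10%, where 4.12% of all genes did, although all 33 differences were above 0 (48.8% of all genes) with a median of 0.16 on the log2 scale. At an unadjusted p under 0.05 (18.7% of all genes) there were 3, Prosalpha5 (0.49, adjusted p = 0.173), Rpn9 (0.30, adjusted p = 0.238) and Rpt4 (0.33, adjusted p = 0.265), and DESeq2 called 0. Without ISC-restricted WT replicate 3 the numbers changed to 2 members passing, Prosalpha5 (0.66, adjusted p = 0.0335) and Rpn9 (0.39, adjusted p = 0.0985). Over the 31 genes the median difference was 0.17, and without ubiquitous WT replicate 2 it was 0.06 with 24 of 31 above 0. For OKSM-Sen no member differed between the models, where 1.46% of all genes did, none had an unadjusted p under 0.05 (15.6% of all genes), DESeq2 called 0, and the median difference was 0.19. Prosalpha1R (0.30), Rpt6 (0.27) and Prosbeta6 (0.27) had the smallest p. Over the 31 genes the median moved from 0.19 to 0.07, with 21 of 31 above 0, without ubiquitous WT replicate 2. It was 0.19 without both relabelled libraries, with 0 members called by edgeR.

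The WT groups themselves differed. In ISC-restricted WT 16 of 33 members were lower than in ubiquitous WT and none was higher, where 9.97% of all genes were lower and 10.7% higher, with a median log2 difference of -0.23. Driver, library depth and everything else that separates the models cannot be told apart in this comparison. Other markers moved with it: 3 of 7 fat body, 4 of 6 ovary and 3 of 9 enteroendocrine markers were higher in ISC-restricted WT, 3 of 11 enterocyte and 2 of 7 ISC and enteroblast markers were lower, and none of 10 muscle markers passed although all 10 lay below 0. Summed fat body markers were 533 to 775 CPM in ISC-restricted WT and 91.3 to 300.4 CPM in ubiquitous WT, and the part of these cell types in the result was not tested. The lid gene Rpn8 was measured at 91.9, 114 and 89.98 CPM in ubiquitous WT and at 72.7, 76.0 and 80.0 CPM in ISC-restricted WT, a log2 difference of -0.37 (SE 0.08, edgeR adjusted p = 0.00606). The ATPase gene Rpt3 was measured at 116, 152 and 124 CPM in ubiquitous WT and at 91.6, 92.2 and 109 CPM in ISC-restricted WT, a log2 difference of -0.42 (SE 0.10, edgeR adjusted p = 0.00812). Neither gene overlapped between the WT groups. The noncatalytic Prosbeta6 (-0.43, edgeR adjusted p = 0.0128), Prosalpha5 (-0.51, adjusted p = 0.0147) and Rpn3 (-0.38, adjusted p = 0.0158) were also lower. Without ubiquitous WT replicate 2 the 16 fell to 5 and the Rpn3 difference to -0.22, without ISC-restricted WT replicate 1 the number was 5, and without ISC-restricted WT replicate 2 it was 8.

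Genes that work with the proteasome were listed by function and read in the same fits. Among 8 genes of assembly factors and proteasome-bound enzymes, 4 were higher in ISC-restricted OKSM, 5 in Sen and 3 in OKSM-Sen. Over all genes the shares higher in these 3 comparisons were 17.3%, 18.2% and 15.7% and the shares lower 15.0%, 18.3% and 13.3%, and the counts of this and the following lists stand beside these. Pomp, the assembly chaperone of the core particle, had log2 fold changes of 0.31, 0.34 and 0.30 in these comparisons. ntc, an F-box protein that binds a proteasome regulator and acts during sperm maturation in flies, had 0.55, 1.23 and 0.76. Of the deubiquitinating enzymes that dock on the regulatory particle, Uch-L5 had 0.37, 0.30 and 0.52, and all of these values passed the threshold. Usp14, another such enzyme, passed with 0.28 in OKSM and 0.32 in Sen, and Sem1, a small lid subunit, with 0.31 in Sen. Of 6 genes that deliver ubiquitinated proteins, 2, 3 and 1 were higher and 1 was lower in each. Rad23, a shuttle receptor, was higher (0.29, 0.41 and 0.29), Plap was higher in OKSM (0.29) and Sen (0.25) and casp in Sen (0.34), and Npl4, a cofactor of the segregase that extracts ubiquitinated proteins, was lower (-0.47, -0.38 and -0.39).

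Among 13 genes of ubiquitin and its activating and conjugating enzymes, 5, 6 and 5 were higher and 2, 3 and 2 were lower in ISC-restricted OKSM, Sen and OKSM-Sen, the counts of lower genes being near the 15.0%, 18.3% and 13.3% of all genes. The polyubiquitin gene Ubi-p63E had log2 fold changes of 0.60, 0.74 and 0.53, and Ubi-p5E, the other polyubiquitin gene, had 0.79, 0.89 and 0.87. Uba1, the enzyme that activates ubiquitin, was higher in Sen (0.36) and OKSM-Sen (0.23), and the conjugating enzyme gene Ubc6 was higher in all 3 (0.22, 0.44 and 0.26). RpL40 and RpS27A, in which ubiquitin is fused to a ribosomal protein, moved the opposite way with -0.71, -0.60 and -0.71, and -0.52, -0.50 and -0.67. Another conjugating enzyme gene, Ubc7, was called lower in Sen (-0.39). Of 85 ribosomal protein genes tested, 81, 82 and 83 were lower, with median log2 fold changes of -0.67, -0.58 and -0.68. The share of a library that the ribosomal protein genes took was 9.53% to 12.7% in ISC-restricted WT and 6.34% to 7.93% in the 9 construct libraries, and the part of this shift in the proteasome values was not tested.

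cnc, whose longer protein activates proteasome genes in flies, was lower in the 3 ISC-restricted constructs (-0.41, -0.43 and -0.30 on the log2 scale), as was its binding partner maf-S (-0.35, -0.43 and -0.37). In the list of 5 genes that holds both, 2 were lower in each construct, beside 15.0%, 18.3% and 13.3% of all genes. rngo of this list was called higher in Sen (0.19). Of the 5 genes, 3, 2 and 2 lay above 0 in OKSM, Sen and OKSM-Sen. Among 18 autophagy genes 5, 6 and 4 were higher and 2, 1 and 2 were lower, beside 17.3%, 18.2% and 15.7% of all genes higher and 15.0%, 18.3% and 13.3% lower. Of these, ref(2)P, the receptor that carries ubiquitinated cargo to autophagosomes, was higher (0.52, 0.84 and 0.51), as was Atg5 of the autophagosome conjugation system (0.40, 0.55 and 0.37). The lower ones were Atg17 in OKSM (-0.46) and OKSM-Sen (-0.32), Atg2 in OKSM (-0.31), and Atg4a in Sen (-0.24) and OKSM-Sen (-0.26). The median over the list was -0.04, 0.10 and 0.07. Of 18 genes of the vacuolar ATPase, the proton pump of lysosomes, 3, 1 and 1 were higher and 6, 10 and 7 were lower, beside the same shares of all genes. In the ubiquitous expression model the 8 assembly genes had median log2 fold changes of 0.03, -0.07 and -0.05 in OKSM, Sen and OKSM-Sen, with none past edgeR's threshold or at an unadjusted p under 0.05.

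**Figure D5:**
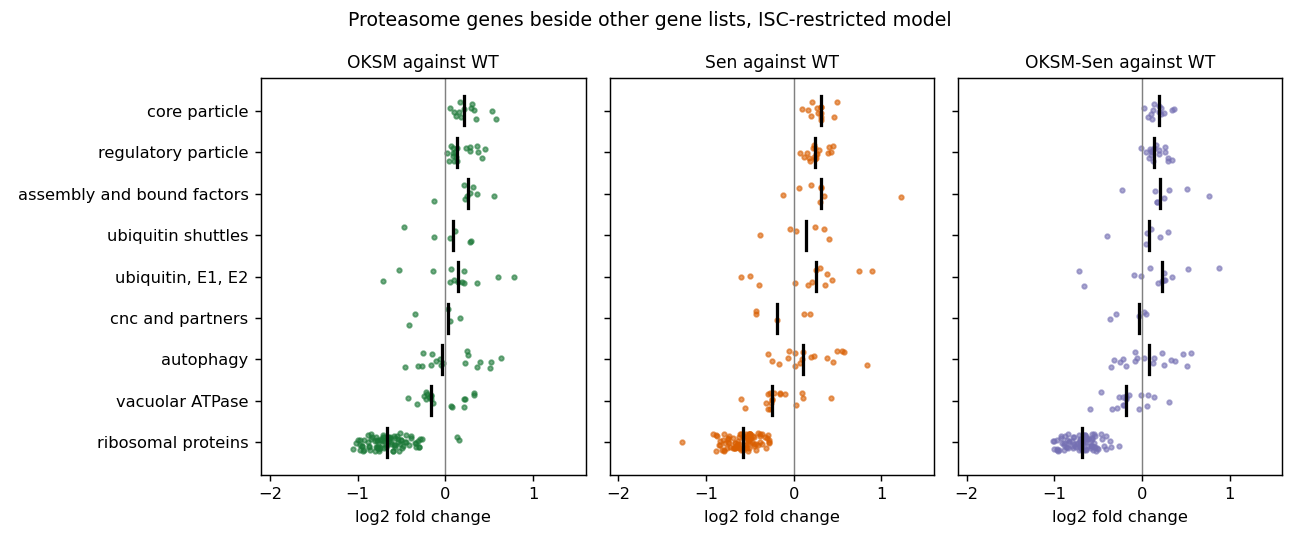
Log2 fold change against WT (horizontal axis) of each gene (points) in lists by function, for OKSM, Sen and OKSM-Sen in the ISC-restricted expression model, with the median of each list as a black line. The core, regulatory and assembly lists have medians above 0 in each construct, and the ribosomal protein genes have medians of -0.67, -0.58 and -0.68.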

How the data were processed

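RNA-seq of midgut samples was analysed from the tables that the authors deposited, 1 per library, with expected counts and TPM per gene. Per the labels and the study's methods, reads of 151 bp were aligned with STAR (version 2.7.1a) and the authors estimated the expected counts with RSEM (version 1.3.1) on the fly genome. The deposited TPM values were used only to compare levels between genes. Reads shared by near-identical genes are divided by estimation, which affects Prosalpha1 and Prosalpha1R, and the sources do not state whether the counting used strand.

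Gene IDs were given symbols from the annotation in the box (17587 of 17714 matched), and no coordinates were converted. Expected counts were rounded to whole numbers, 390 rRNA, snoRNA and snRNA genes were removed, and genes with a mean count of at least 10 were kept (9637 ubiquitous, 9374 ISC-restricted, 9602 for both). TMM scaling and edgeR's quasi-likelihood test (glmQLFit, robust) were run in edgeR 4.0.16 under R 4.3.3, with the 4 conditions of a model in 1 fit and all 8 groups in 1 fit for differences between models, and Benjamini-Hochberg adjustment over all genes, at a false discovery rate of 10%. Fold changes come from the fit of the comparison's own model, and log2 CPM uses a prior count of 2. The CPM printed per library were scaled over all 23 libraries. DESeq2 1.42.0, size factors of the DESeq2 type, no count filter, a replicate block and each library left out in turn were alternatives, and 2 more were added after the data were seen: the Prosalpha1 pair summed, and leaving out both relabelled libraries. The fit was tested on simulated data.

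The named members are the up to 5 called with the lowest adjusted p in each direction, or the up to 3 with the lowest p where none was called, and the highest and lowest by TPM. Members and lists were chosen with earlier results of these data known. Summed counts per library had a median of 34838321 in the ubiquitous and 16719848 in the ISC-restricted expression model, so low genes are less precise in the latter. No 2 libraries were near-identical.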

Additional observations from a re-analysis of the deposited data

Results flagged for a closer look

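The effect of Sen differed between the models for 19 proteasome genes by edgeR's quasi-likelihood test of the difference, on the log2 scale by 0.53 for Rpt1, 0.59 for Rpt4, 0.50 for Rpn9, 0.47 for Rpn2 and 0.53 for Rpt6. In the ISC-restricted expression model the effect of Sen differed with and without OKSM for 12 proteasome genes by the interaction term, with -0.56 for Rpn3, -0.69 for Prosalpha4, -0.51 for Rpn9, -0.52 for Rpt6 and -0.50 for Rpt4. Without both relabelled libraries 1 member passed in the interaction and 12 in the comparison of the models.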

How the results depend on the processing

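No named call reversed under the alternatives run. Medians within 0.05 of 0 over the 31 genes did change sign in 4 comparisons when 1 library was left out (OKSM, OKSM-Sen and OKSM-Sen against OKSM in the ubiquitous model, and OKSM-Sen against OKSM in ISCs), the furthest without ubiquitous WT replicate 2, from -0.01 to 0.12 in OKSM and from -0.01 to 0.10 in OKSM-Sen. DESeq2 called 1 member between OKSM-Sen and OKSM in ISCs where edgeR called 0. Without both relabelled libraries the members called were 6 over the 4 ISC-restricted conditions, 9 in Sen, 2 in OKSM-Sen, 1 in the interaction and 12 for Sen between the models. With 1 library left out the counts ran from 5 to 20 over the 4 ISC-restricted conditions, from 10 to 16 in OKSM, from 11 to 27 in Sen, from 2 to 13 in OKSM-Sen, from 9 to 16 in the interaction, from 0 to 2 for OKSM between the models, from 5 to 28 for Sen between the models and from 5 to 20 for WT between the models. With TPM as deposited the core minus regulatory shift was 0.0353 in ubiquitous OKSM-Sen, -0.0466 in ISC-restricted OKSM and -0.0484 in ISC-restricted Sen, and in all 3 ISC-restricted constructs its sign was opposite to that on the CPM scale. The Prosalpha1R call in OKSM was lost with no filter on low counts (adjusted p = 0.167).

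Same-numbered libraries did not deviate together throughout. Their correlations ran from -0.367 to 0.469 in the ubiquitous expression model, with 6 of 15 above 0.1. In the ISC-restricted expression model they ran from -0.332 to 0.252, with 4 of 18 above 0.1. With so few libraries per group this does not settle whether the numbers pair samples. With a replicate block the counts were 0 in every ubiquitous comparison, 12 over the 4 ISC-restricted conditions, 13 in OKSM, 22 in Sen, 8 in OKSM-Sen, 12 in the interaction and 24 for Sen between the models, and the Prosalpha1R call in OKSM was lost (adjusted p = 0.129). Of the 15 copies other than Prosalpha1R, only Rpt3R had enough reads to be tested, in the ubiquitous expression model.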

Other observations

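The 4 tested proteasome genes on chromosome X, Prosalpha4, Rpt3, Rpt4 and Rpt6, all passed as higher in ISC-restricted OKSM, Sen and OKSM-Sen, whereas 9, 19 and 5 of the 29 tested members on other chromosomes did. The copies Prosbeta2R1 and Rpn13R, also on X, had too few reads to be tested. In OKSM-Sen the calls of Prosalpha4 and Rpt6 were lost in 5 and 4 of 12 fits with a library left out. In the fits that cost Rpt6 its call, only Rpn3 and Rpn9, neither of them on X, were still called. Rpt3 and Rpt4 therefore lost their calls in those fits as well. Over all genes tested the share called higher was 15.3%, 16.0% and 15.01% of 1526 genes on X and 17.7%, 18.6% and 15.9% of 7848 genes elsewhere. This grouping was noticed after the values were seen and is given without a test.

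Slik, which overlaps Rpn8 by 2653 bases on the opposite strand, had log2 fold changes of -0.30, -0.24 and -0.15 in ISC-restricted OKSM, Sen and OKSM-Sen, opposite in sign to those of Rpn8 in Sen. CG17985, which overlaps Rpt1 by 1515 bases on the same strand, had a level of 9.10 CPM and a log2 fold change of -0.54 in Sen.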
